A study of Mus musculus with 4 samples.

Results

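Transcripts of 10 core P-body and decapping genes (Ddx6, Eif4enif1, Edc3, Edc4, Dcp1a, Dcp1b, Dcp2, Lsm14a, Lsm14b and Patl1) were followed in RNA immunoprecipitated from mouse brain tissue with anti-Cpeb4 or anti-IgG. They were chosen by gene name, with earlier results of these data known, and each matched 1 of the 53379 genes in the deposited table. The tissue was the V-SVZ (ventricular-subventricular zone), a source of new neurons beside the lateral ventricles, of wild-type (WT) CD1 mice at postnatal day 7 or 8 (P7/P8). All 4 libraries share that tissue, genotype, strain and age and differ in the antibody: anti-Cpeb4 in 2 of them and anti-IgG in the other 2, with 1 of each in experiments 1 and 2. The labels give neither the number of animals nor whether the experiments used separate ones, so the p-values cover the spread among these 4 libraries only, which may be technical.

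P-bodies are cytoplasmic granules of messenger RNA and protein in which transcripts can be held silent or degraded. Removal of the 5′ cap by the Dcp2 enzyme, helped by Dcp1 and the Edc scaffolds, commits a transcript to decay from its 5′ end. The helicase Ddx6 binds the adaptors 4E-T (the product of Eif4enif1), Lsm14, Edc3 and Pat1 and links decapping to translational repression. Cpeb4 is an RNA-binding protein of the cytoplasmic polyadenylation element-binding family, which acts on 3′ ends of transcripts to regulate poly(A) tails and translation. The comparison asked which transcripts were recovered with Cpeb4 beyond the IgG background, and here the proteins named above enter only through their own transcripts.

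In the libraries 22486721 to 35037171 reads fell on genes, and the transcripts studied here had 524 to 9643 reads each in the Cpeb4 libraries and 503 to 2983 in the IgG libraries. Levels are FPKM, reads per kilobase of the length counted for each gene after the authors' depth scaling, so they can be compared between genes. The transcript of Cpeb4 itself was at 26.7 and 38.3 FPKM in the Cpeb4 libraries of experiments 1 and 2 and at 9.04 and 9.66 with IgG. Cpeb4 was therefore 1.67 higher on the log2(FPKM + 1) scale (SE of 0.13, limma adjusted p = 9.59e-08). Marker transcripts of the V-SVZ were present in every library: the summed level of 6 neuroblast markers was 412 to 430 FPKM with Cpeb4 and 251 to 253 with IgG, and that of 7 neural stem cell markers 767 to 785 and 455 to 471. The transporter gene Slc1a3 alone made up most of the second difference, at 468 and 500 FPKM with Cpeb4 and 246 and 238 with IgG. Among the same 7 markers Nes went the other way (log2 -0.40, limma adjusted p = 0.0197), and Gfap (0.13, limma adjusted p = 0.439) and Hes5 (0.07, limma adjusted p = 0.675) missed the threshold of 0.05. Of the 6 neuroblast markers 4 were called higher, and Dlx1 (0.14, limma adjusted p = 0.370) and Dlx5 (-0.25, limma adjusted p = 0.102) were not called. Cd24a had the highest levels of these 6, at 160 and 180 FPKM with Cpeb4 and 89.5 and 89.8 with IgG. The summed level of 4 ependymal markers was 41.5 to 49.0 FPKM with Cpeb4 and 57.5 to 59.0 with IgG. Of these, Tmem212 (log2 -0.69, limma adjusted p = 0.000207) and Ccdc153 (-0.56, limma adjusted p = 0.00143) were called lower. Foxj1 (0.12, limma adjusted p = 0.482) and Rarres2 (-0.22, limma adjusted p = 0.212) were not called. Markers of other cells were present too. The 5 striatal neuron markers summed to 352 to 381.5 FPKM with Cpeb4 and 344 to 354 with IgG (2 called higher, 0 lower). The 5 oligodendrocyte markers, at 322 to 368 and 234 to 239 FPKM, were all called higher. Of 5 choroid plexus and blood markers, at 203 to 227 and 262 to 288 FPKM, 4 were tested and 3 called lower. Of all tested genes 38.8% were called higher and 11.6% lower. The 5 genes of tissues outside the brain summed to at most 1.37 FPKM in any library. The part of these marker differences in the results below was not tested. The libraries compare antibodies on the same kind of tissue, so these differences measure neither numbers of cells nor RNA per cell. No library of the total lysate was analysed here, so a transcript's abundance in the tissue and its recovery by the antibody cannot be told apart.

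All 10 transcripts passed the filter of at least 1 FPKM in at least 2 libraries and were tested among 15745 genes. With Cpeb4, Ddx6, Lsm14a, Dcp1a and Dcp2 were higher, Edc4 was lower, and Eif4enif1, Edc3, Dcp1b, Lsm14b and Patl1 were not called at a limma adjusted p under 0.05. Thus 4 of 10 were called higher, where 38.8% of all tested genes were, and 1 of 10 was called lower, where 11.6% of all were. Both shares lie near those of all genes, so the counts are no result about the 10 genes as a group. Their median log2 fold change was 0.25 beside 0.19 over all tested genes. The values ran from 1.82 for Ddx6 to -0.39 for Edc4, at or above 99.3% and 10.8% of tested genes. The FPKM of both Cpeb4 libraries exceeded those of both IgG libraries for 5 of the 10 (53.2% of all tested genes) and lay below both for 2 (22.7% of all).

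**Figure D1:**
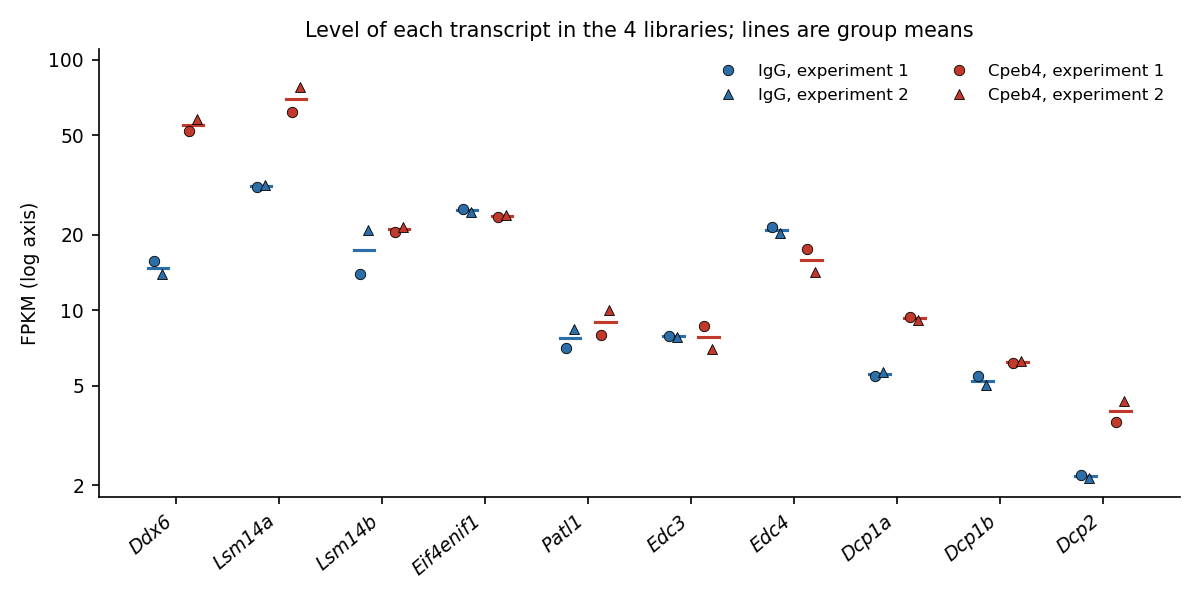
FPKM (log axis) of each of the 10 transcripts in the 2 IgG libraries (blue) and the 2 Cpeb4 libraries (red), with circles for experiment 1, triangles for experiment 2 and a line at each group's mean. Ddx6 and Lsm14a are the only ones above 50 FPKM, and only in the Cpeb4 libraries; Eif4enif1 lies between 23.6 and 25.5 FPKM in all 4.

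The helicase Ddx6 had the largest difference of the 10. It was at 51.8 FPKM in the Cpeb4 library of experiment 1 and 58.1 in that of experiment 2, and its IgG libraries were at 15.7 and 14.0 FPKM. The groups did not overlap, and the difference between them exceeded that between replicates many times over. Its mean was 55.0 ± 4.49 FPKM (SD, n = 2) with Cpeb4 and 14.8 ± 1.21 (n = 2) with IgG, 3.54-fold higher on the FPKM + 1 scale. The log2 fold change was 1.82 (95% interval 1.55 to 2.09, SE 0.13, limma adjusted p = 5.51e-08), larger than or equal to that of 99.3% of tested genes. It was 1.66 in experiment 1 and 1.98 in experiment 2. Ddx6 was called higher in all 14 alternative analyses, at log2 fold changes of 1.33 to 1.91. It lies on chromosome 9 from 44602983 to 44640731 (GRCm38).

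The paralogs Lsm14a and Lsm14b encode RNA-binding partners of Ddx6 and 4E-T that help P-bodies to assemble. Lsm14a (chromosome 7: 34344144 to 34390026) was at 61.6 and 77.9 FPKM in the Cpeb4 libraries of experiments 1 and 2 and its IgG libraries were at 31.1 and 31.6 FPKM. It was the most abundant of the 10 transcripts with either antibody, and its Cpeb4 libraries lay well above its IgG libraries. The difference for Lsm14a was 2.17-fold on the FPKM + 1 scale, a log2 fold change of 1.12 with an SE of 0.13 (limma adjusted p = 2.91e-06), at or above 91.8% of tested genes. It was called higher in all 14 alternatives, at log2 fold changes of 0.61, with libraries scaled to read totals, to 1.28, without Cpeb4 replicate 1. Lsm14b (chromosome 2: 180024900 to 180035466) was at 20.6 and 21.5 FPKM with Cpeb4 and at 14.0 and 20.9 FPKM with IgG. The IgG library of experiment 2 thus lay within the range of the Cpeb4 libraries while that of experiment 1 lay below it. Lsm14b was not called (log2 0.28, SE 0.14, limma adjusted p = 0.0973), with a 95% interval of -0.01 to 0.57. The value rested on the IgG libraries: without IgG replicate 2 it was 0.56 and called higher, as were 25.3% of all tested genes (limma adjusted p = 0.046), and without IgG replicate 1 it was 0.01.

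Eif4enif1 (chromosome 11: 3202343 to 3244588) encodes 4E-T, which binds the cap-binding protein eIF4E and carries it into P-bodies, and which the study's title names. Its transcript was at 23.6 and 23.97 FPKM with Cpeb4 and at 25.5 and 24.6 with IgG. All 4 values lay close together, with both Cpeb4 libraries just below both IgG libraries. The log2 fold change was -0.07 (95% interval -0.33 to 0.19, limma adjusted p = 0.66), which leaves room for a small change in either direction. With each of 4 other scalings of the libraries, and after removal of a length and level trend, Eif4enif1 was instead called lower, at log2 fold changes of -0.57 to -0.33. Of all tested genes, 13.3% were likewise not called with the authors' scaling and lower under each of the other 4. By RefSeq coordinates the locus overlaps Sfi1, at 5.16 and 5.18 FPKM with Cpeb4 and 8.91 and 10.2 with IgG. Since the SMART-Seq cDNA carries no strand information, reads in sequence that both genes share could not be assigned by strand.

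Patl1 (chromosome 19: 11912399 to 11945096) encodes Pat1b, which bridges the deadenylated 3′ end and the decapping enzyme. It was at 7.98 and 10.04 FPKM with Cpeb4 and at 7.08 and 8.44 with IgG. The groups overlapped, and in both groups experiment 2 gave the higher value. Patl1 was not called (log2 0.19, 95% interval -0.08 to 0.45, limma adjusted p = 0.225), and its fold change equalled the median of all tested genes to 2 decimals. Without Cpeb4 replicate 1 it was 0.34 and called higher, as were 41.5% of all tested genes (limma adjusted p = 0.0293). Leaving out Cpeb4 replicate 2 gave 0.040, IgG replicate 1 0.077 and IgG replicate 2 0.30, none of them called.

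Edc3 and Edc4 encode enhancers of decapping: Edc3 binds Dcp2 and Ddx6, and Edc4 is a large scaffold that joins Dcp1 and Dcp2. Edc4 (chromosome 8: 105880873 to 105893225) was the only one of the 10 called lower. It was at 17.6 and 14.2 FPKM with Cpeb4 and at 21.5 and 20.4 with IgG. Both Cpeb4 values lay below both IgG values, and the Cpeb4 libraries differed from each other by more than the nearer of them did from IgG. Its log2 fold change was -0.39 (SE 0.12 and 95% interval -0.65 to -0.12, limma adjusted p = 0.0159). It was -0.28 in experiment 1 and -0.50 in experiment 2, and -0.24 without Cpeb4 replicate 2. The call was lost, at fold changes of similar size, without IgG replicate 1 (-0.35, limma adjusted p = 0.216), without IgG replicate 2 (-0.42, limma adjusted p = 0.143) and when genes of any level were tested (-0.39, limma adjusted p = 0.101). The other 4 scalings gave -0.88 to -0.65, all called. Every gene called lower with the authors' scaling stayed lower under these 4, so they were no check on the call. Edc3 (chromosome 9: 57708540 to 57750163) was at 8.63 and 6.98 FPKM with Cpeb4 and at 7.88 and 7.85 with IgG. The Cpeb4 libraries lay on either side of the IgG libraries, and Edc3 alone of the 10 changed sign between experiments, with 0.12 in the first and -0.15 in the second. Its log2 fold change was -0.02 (95% interval -0.29 to 0.26, limma adjusted p = 0.931). Edc3 was instead called lower by read totals (-0.47, limma adjusted p = 0.00228) and by upper quartile (-0.40, limma adjusted p = 0.0113), where 42.4% and 37.2% of all tested genes were called lower.

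Dcp2 is the decapping enzyme itself, and Dcp1a and Dcp1b are its paralogous activators. Dcp2 (chromosome 18: 44380500 to 44424969) was the least abundant of the 10, at 3.57 and 4.35 FPKM with Cpeb4 and 2.21 and 2.15 with IgG. These values did not overlap, and the antibody effect was 0.64 on the log2 scale (SE 0.15 and 95% interval 0.33 to 0.95, limma adjusted p = 0.00174). The pseudocount of 1 understates changes at such levels, and with 0.1 the value was 0.82. Dcp1a (chromosome 14: 30479486 to 30527056) was at 9.44 and 9.15 FPKM with Cpeb4 and at 5.45 and 5.68 with IgG. Replicates lay far closer to each other than the groups did, and Dcp1a had a log2 fold change of 0.65 with an SE of 0.13 (limma adjusted p = 0.000461). Dcp1b (chromosome 6: 119175253 to 119221614) was at 6.16 and 6.27 FPKM with Cpeb4 and at 5.45 and 5.04 with IgG. Its groups did not overlap either, but the difference was small and not called (log2 0.21, 95% interval -0.07 to 0.49, limma adjusted p = 0.195). By scaling to read totals Dcp2 and Dcp1a had values of 0.25 and 0.20 and by upper quartile of 0.31 and 0.27, all not called. By median centring Dcp2 was at 0.34 and not called, and Dcp1a at 0.35 and called. By trimmed mean of M-values Dcp2 was at 0.43 and Dcp1a at 0.41, both called. In the same order of scalings 17.5%, 20.6%, 22.9% and 26.0% of all tested genes were called higher. RefSeq places the calcium channel genes Cacna1d and Cacna1c across parts of the Dcp1a and Dcp1b loci, at 3.72 to 4.32 and 2.56 to 3.12 FPKM in the 4 libraries.

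**Figure D2:**
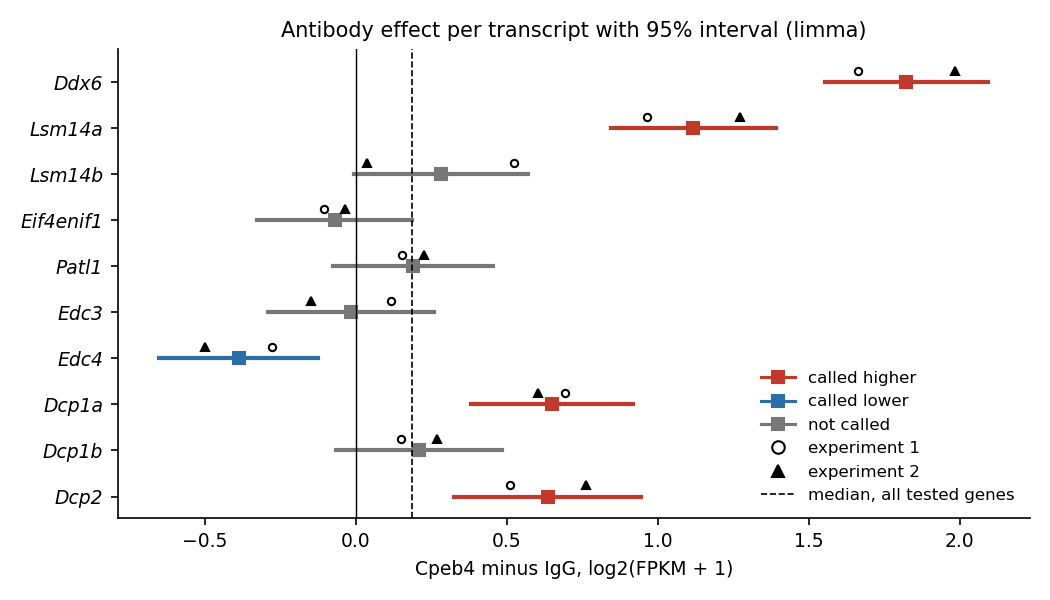
Cpeb4 minus IgG on the log2(FPKM + 1) scale for each transcript (squares, with limma's 95% interval as bars), with the value of experiment 1 (open circles) and experiment 2 (triangles) above it and the median of all tested genes at 0.19 (dashed line). Ddx6 and Lsm14a lie apart from the rest, Edc4 lies below 0, and 5 intervals cross 0.

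The order of levels differed between the antibodies. With IgG it ran from Lsm14a (31.4 FPKM) through Eif4enif1 (25.03), Edc4 (21.0), Lsm14b (17.5), Ddx6 (14.8), Edc3 (7.87), Patl1 (7.76), Dcp1a (5.56) and Dcp1b (5.24) to Dcp2 (2.18). Replicates overlapped between Edc4 and Lsm14b, Lsm14b and Ddx6, Edc3 and Patl1, and Dcp1a and Dcp1b. With Cpeb4, Ddx6 stood second at 55.0 FPKM after Lsm14a at 69.7, then came Eif4enif1 (23.8), Lsm14b (21.0), Edc4 (15.9), Dcp1a (9.29), Patl1 (9.01), Edc3 (7.81), Dcp1b (6.22) and Dcp2 (3.96). Here the replicates overlapped between Dcp1a and Patl1 and between Patl1 and Edc3. Ddx6 moved from the fifth place to the second, and Dcp2 was last in both.

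The scaling of the libraries moved every fold change in the same direction and changed their order only between Dcp1a and Dcp2. With the authors' scaling, the median log2 fold change of all tested genes was 0.19; it was -0.04 by trimmed mean of M-values, -0.11 by median centring, -0.17 by upper quartile and -0.24 by read totals. In the same order of scalings, the shares of all tested genes called higher were 26.0%, 22.9%, 20.6% and 17.5%, and those called lower 24.9%, 30.8%, 37.2% and 42.4%. Ddx6 was at 1.56, 1.53, 1.41 and 1.33 and Lsm14a at 0.85, 0.82, 0.69 and 0.61 under these 4 scalings, all called. Thus 2 of the 10 transcripts were higher under all 5 scalings, beside 17.3% of all tested genes, and Edc4 was lower under all 5, beside 11.6% of all. All 1822 genes called lower with the authors' scaling were lower under all 5, since the others moved every fold change down. The scalings were therefore no check on the call of Edc4. Relative to the all-gene median, Dcp1b, Lsm14b and Patl1 lay within 0.1 of it under the authors' scaling, and their values followed it below 0 under the other scalings, except Lsm14b at 0.022 by trimmed mean of M-values.

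**Figure D3:**
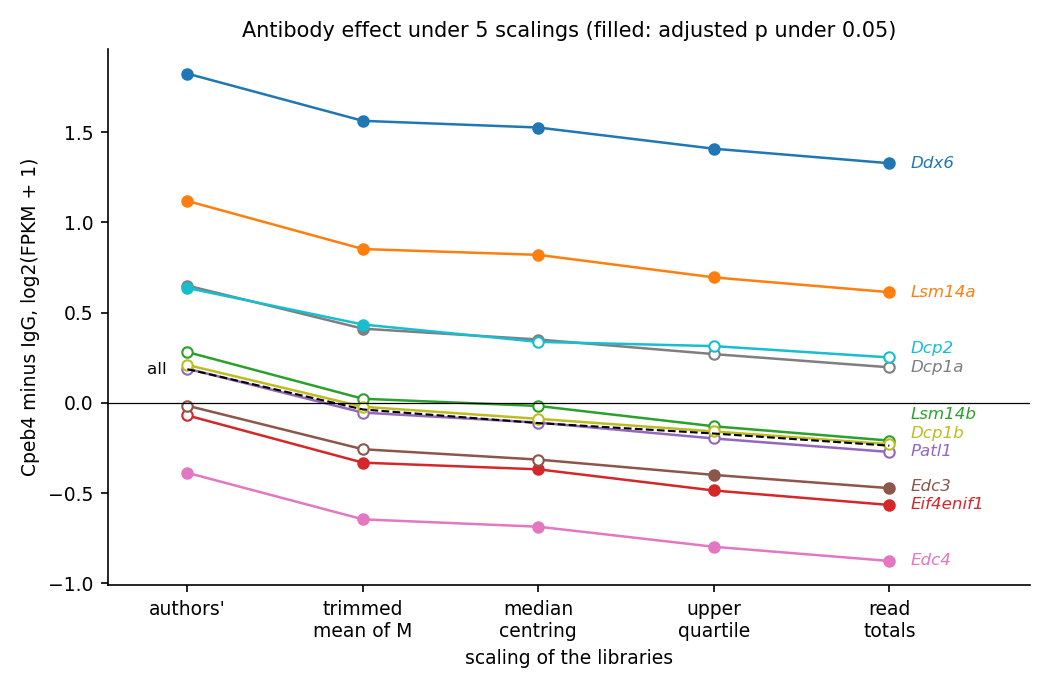
Cpeb4 minus IgG on the log2(FPKM + 1) scale for each transcript under 5 scalings of the libraries, with filled points where the limma adjusted p was under 0.05 and the median of all tested genes as a dashed line. Ddx6 and Lsm14a stay above 0.6 and called throughout, Edc4 stays below 0 and called, and the other 7 change their call or are never called. Every gene called lower with the authors' scaling stays called lower under the rest.

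Ratios between transcripts of the same library do not depend on how libraries are scaled, and 6 such pairs were compared. With 2 libraries a group the smallest exact two-sided p is 0.333, so they are given with no test. Ddx6 was at 2.95 and 4.10 times the FPKM of Edc4 in the Cpeb4 libraries of experiments 1 and 2 and at 0.729 and 0.683 times in the IgG libraries. The order of the helicase and the scaffold was thus opposite in the Cpeb4 and IgG libraries, a difference of 2.30 on the log2 scale. Eif4enif1 was at 0.456 and 0.412 times the level of Ddx6 with Cpeb4 and at 1.62 and 1.76 times with IgG, again in opposite order. Among the paralogs, Dcp1a was at 1.53 and 1.46 times Dcp1b with Cpeb4 and at 0.9997 and 1.13 times with IgG. Lsm14a was at 2.996 and 3.62 times Lsm14b with Cpeb4 and at 2.22 and 1.51 times with IgG. In both paralog pairs the ratio was higher in each Cpeb4 library than in each IgG library. Edc3 was at 0.492 and 0.493 times Edc4 with Cpeb4 and at 0.367 and 0.385 times with IgG. The Dcp2 to Dcp1a ratio, of the enzyme to its activator, was 0.378 and 0.475 with Cpeb4 and 0.406 and 0.379 with IgG, so its groups overlapped. How often other gene pairs separate was not computed, so separate groups are no result about these pairs. Among all tested single genes, both Cpeb4 libraries lay above both IgG libraries for 53.2% and below both for 22.7%.

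**Figure D4:**
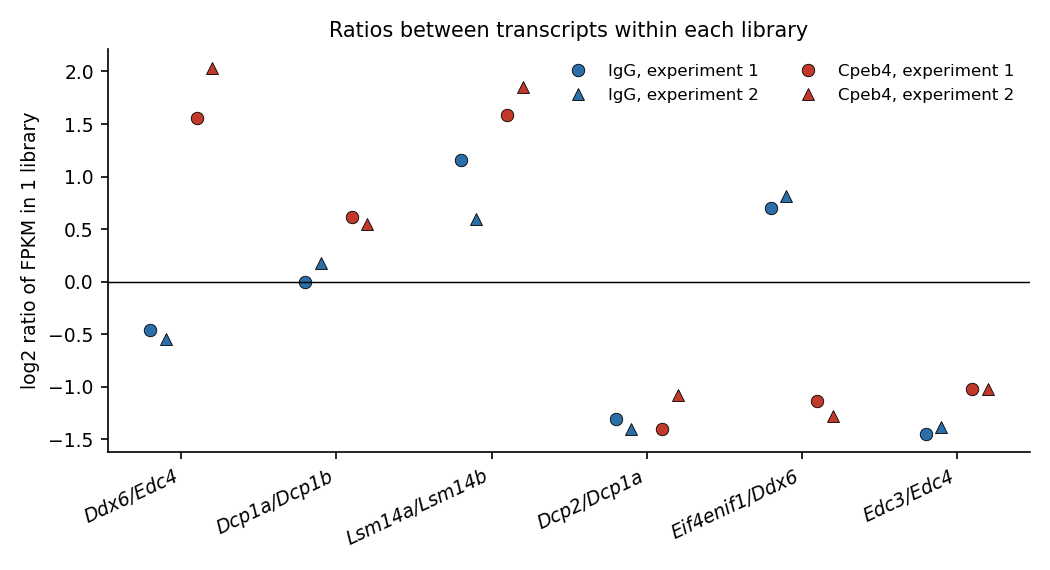
Log2 ratio of the FPKM of a pair of transcripts within each library, for the 2 IgG libraries (blue) and the 2 Cpeb4 libraries (red), with circles for experiment 1 and triangles for experiment 2. Ddx6/Edc4 and Eif4enif1/Ddx6 lie on opposite sides of 0 in the 2 groups, and Dcp2/Dcp1a is the pair whose groups overlap.

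The fold changes were set beside the length that the FPKM implies for each gene, which is not the gene's span on the chromosome. Genes of greater implied length were more often higher with Cpeb4. Across 15633 genes, which are not independent replicates, the log2 fold change and the implied length had a Spearman correlation of 0.30. Of the 5208 genes of greatest implied length 52.6% were called higher and of the 5217 of least 23.9%. Of the 10 genes, Dcp2 had the greatest implied length at about 8.62 kb. Ddx6 followed at 6.07, Edc3 at 5.71 and Dcp1a at 5.58 kb, beside a median of 3.05 kb over tested genes. Of these 4 genes, Dcp2, Ddx6 and Dcp1a were called higher and Edc3 was not called. Edc4, called lower, was at 4.78 kb and Lsm14a, called higher, at 2.94 kb. With a trend on length and level removed, Ddx6 was at 1.43, Lsm14a at 0.83, Dcp2 at 0.66 and Dcp1a at 0.48, all called higher, and Edc4 at -0.69 and Eif4enif1 at -0.33, both called lower; of all genes in that fit 39.4% were higher and 11.4% lower.

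**Figure D5:**
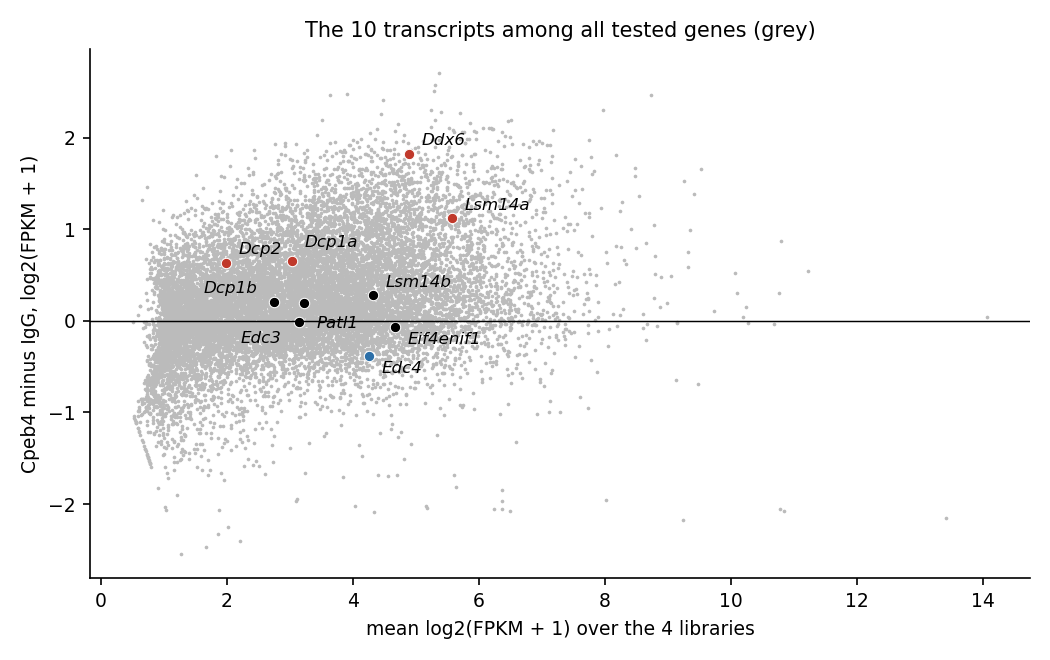
Cpeb4 minus IgG on the log2(FPKM + 1) scale against the mean log2(FPKM + 1) of the 4 libraries for all 15745 tested genes (grey) and the 10 transcripts (red, called higher; blue, called lower; black, not called). Ddx6 lies near the upper edge of the cloud, at or above 99.3% of genes, and most of the others lie within its bulk.

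In the authors' deposited table the same 5 of the 10 genes had an adjusted p under 0.05, 4 of them higher and 1 lower, beside 21.7% and 4.93% of the genes for which that table gives an adjusted p. Those 22709 genes include some below the filter of 1 FPKM, which all 10 passed. The shares are thus over a wider set than the 38.8% and 11.6% above, and the counts are again no result about the 10 as a group. The authors' deposited table gives a log2 fold change of 1.88 (SE 0.16, adjusted p = 5.86e-30) for Ddx6 and 1.13 (SE 0.16, adjusted p = 2.80e-11) for Lsm14a. For Dcp2 and Dcp1a the authors' deposited table gives 0.84 and 0.73, and for Edc4 it gives -0.42 with an adjusted p of 0.0399.

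Other genes of the pathway were described in the same fit. Of 15 further decapping and 5′ decay genes 14 were tested, of which 7 were higher, 0 lower and 7 not called, with a median log2 fold change of 0.29, beside 38.8% higher, 11.6% lower and a median of 0.19 over all tested genes. At an unadjusted p under 0.05 limma also found 0 lower, and limma-voom called 0 lower. By other scalings some were lower: 6 by read totals, 5 by upper quartile and 2 each by trimmed mean of M-values and by median centring, beside 42.4%, 37.2%, 24.9% and 30.8% of all. Without Cpeb4 replicate 1 there were 2 lower, beside 15.9% of all. Those called higher fell to 4 by read totals and by upper quartile. Pnrc2, a coactivator that also binds Dcp1a, was at 61.8 ± 5.68 FPKM with Cpeb4 and 22.5 ± 0.848 with IgG (SD, n = 2). The coactivator Pnrc1 was at 72.1 ± 7.50 against 31.4 ± 1.72 FPKM (SD, n = 2). Their log2 fold changes were 1.41 and 1.17. Lsm6 and Lsm3, subunits of the ring that binds deadenylated 3′ ends, had log2 fold changes of 1.07 and 0.81. The limma adjusted p of these 4 lay between 2.57e-07 and 4.41e-05.

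Of 23 genes of cap-binding proteins and translational repressors linked to Ddx6 or 4E-T, among them Cpeb, Tnrc6, Argonaute and Pumilio genes, 22 were tested, of which 13 were higher, 1 lower and 8 not called (median log2 fold change 0.61; 0.59 without Cpeb4). The shares of all tested genes were 38.8% higher and 11.6% lower. By read totals 8 were higher and 6 lower, beside 17.5% and 42.4% of all tested genes. The other 3 scalings gave 4 to 6 lower, beside 24.9% to 37.2% of all. Without either Cpeb4 library 2 were lower, and without either IgG library 0 were. Besides Cpeb4, the decay-promoting RNA-binding proteins Zfp36l1 and Rc3h1 and Eif4e, which binds the cap, were higher by 1.63, 1.45 and 1.36 on the log2 scale. The cap-binding paralog Eif4e2 was lower at 18.7 ± 0.0977 against 25.3 ± 0.442 FPKM (log2 -0.41, limma adjusted p = 0.00959). Patl2 and Eif4e1b, paralogs of Patl1 and Eif4e best known from oocytes, were at most at 0.121 and 0.173 FPKM in any library and were not tested. Stress granules are neighbouring RNA granules with components of their own. Of 13 stress granule genes 8 were higher, 3 lower and 2 not called (median 0.56), beside the same 38.8% and 11.6% of all, with Caprin1, Fmr1, G3bp2 and Tia1 at log2 fold changes of 1.40, 1.27, 1.09 and 0.89. By read totals and by upper quartile 4 were higher, beside 17.5% and 20.6% of all, and without IgG replicate 1 5 were, beside 26.5%. The lower ones were Atxn2l at -0.58, Ubap2l at -0.36 and Fxr2 at -0.34. Every gene called lower with the authors' scaling stayed lower under the other scalings, so these were no check on the 3 calls. There were 3 lower under all 5 scalings, 1 without IgG replicate 1 and 0 without IgG replicate 2. Of all tested genes 11.9% were lower without Cpeb4 replicate 2, 5.98% without IgG replicate 1 and 5.51% without IgG replicate 2.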

How the data were processed

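RNA from 2 anti-Cpeb4 and 2 anti-IgG precipitates was isolated with the MAGNA RIP kit, copied with SMART-Seq v4 low input chemistry and prepared with Nextera XT, per the labels' protocols. Per the submitters' processing notes, which give no roles, the tools included STAR 2.6.0c, HTSeq 0.6.1p2 and DESeq2 1.26.0 and the build was mm10. No molecular identifiers are described, so reads may not be independent molecules. The authors deposited FPKM for each library. Per the file headers there is also the authors' own comparison: a mean signal of size-factor-scaled reads, log2 fold changes with errors, a score and p-values before and after adjustment. The table held 0 columns from other samples.

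From the FPKM steps and the mean signal, whole reads came out for 100% of values to within 0.01 read (30361 genes). They served for depth, other scalings, limma-voom and an implied length of each gene, not its chromosomal span, good to about 1%. The main test was limma 3.58.1 (R 4.3.3; trended prior; antibody plus an experiment block) on log2(FPKM + 1), for 15745 genes at 1 FPKM or more in 2 or more libraries. Tests were two-sided, adjusted by Benjamini-Hochberg over all those genes and called under 0.05. The block follows the experiment numbers in the titles and the word batch in the name of the authors' table, although same-numbered libraries deviated together by a correlation of only 0.00238 across genes. Per gene, 1 residual degree of freedom remained, and an imprecisely estimated 14.6 came from the prior. Replicates differed by more than sampling noise (chi-square per degree of freedom 23.0 for Cpeb4, 4.97 for IgG). Recovery and test were each run on simulated data. The simulation for limma changed few genes, as many up as down, with equal spread in both groups, unlike the data here. It therefore lends the calls no support.

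The 10 genes and all lists were chosen with earlier results of these data known. Named were the 10, Cpeb4, and of each further list at most the 4 called genes of smallest p and every lower one; Patl2, Eif4e1b, overlapping genes and single markers were named beyond that rule, after their values were seen. Positions are those of RefSeq for GRCm38.p6, matched by symbol for all 10. Alternatives were 4 other scalings, other filters, pseudocount 0.1, limma-voom, no block, each library left out, and a length and level trend (loess, span 0.5) taken out. Sequences of 3′ ends were not analysed here.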

Additional observations from a re-analysis of the deposited data

How the results depend on the processing

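Ddx6, Lsm14a and Cpeb4 were called higher in all 14 alternatives. Of the 10 genes 4 were called higher, 2 by read totals and by upper quartile, and 4 to 5 with 1 library left out; 1 was called lower, 3 by read totals and by upper quartile, 2 by trimmed mean of M-values, by median centring and with the length and level trend removed, 0 with no filter and 0 to 1 with 1 library left out. Of all genes 6106 were called higher (2759 by read totals, 3240 by upper quartile, 3607 by median centring, 3915 with no filter, 3977 to 6534 with 1 library left out) and 1822 lower (6670, 5856 and 4857 by the same 3 scalings, 3918 by trimmed mean of M-values, 875 with no filter, 937 at FPKM of at least 5, 867 to 2497 with 1 library left out). Signs turned for uncalled genes: Dcp1b was at -0.23, -0.16, -0.022 and -0.089 and Patl1 at -0.27, -0.20, -0.054 and -0.11 by read totals, upper quartile, trimmed mean of M-values and median centring, Lsm14b at -0.21, -0.13 and -0.018 by the first 2 and by median centring, and Edc3 at -0.15 to 0.12 with 1 library left out, the positive value without Cpeb4 replicate 2. Edc3 was called lower by read totals (-0.47) and by upper quartile (-0.40). The Dcp2 to Dcp1a ratio difference of 0.11 (log2) was -0.013 with 1 added to each FPKM. Dcp2 also lost its call with no filter (limma adjusted p = 0.0526). The fit with no filter tested more genes, and the share of them called was not computed. Counts of 0 lower there thus have no share beside them and are no result about the listed genes.

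Of the further decapping genes 4 were higher by read totals and by upper quartile and 6 and 5 lower, 2 lower by trimmed mean of M-values and by median centring, and 0 to 2 with 1 library left out. Of the recruiters 8 were higher by read totals; 6, 6, 4 and 5 were lower by read totals, upper quartile, trimmed mean of M-values and median centring, 3 with the trend removed, 0 with no filter and 0 to 2 with 1 library left out. Of the stress granule genes 4 were higher by read totals and by upper quartile and 5 to 8 with 1 library left out, and 0 were lower with no filter and 0 to 3 with 1 library left out. Beyond the scalings, which set the level of all genes, and fewer samples or more genes tested, the cause was not tested. Without the replicate block 6007 genes were higher and 1714 lower, and it changed no call among the 10. Fits with 1 library left out had no block, and their spread came from the complete pair alone. Each of the 10 genes had at least 503 reads in every library; what more depth would change was not tested, and intervals rest on 2 libraries a group.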
